A study of Homo sapiens with 2 samples.

Results

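Promoter methylation of 9 tumour suppressor genes that are often methylated in leukaemia was compared between the t(8;21) AML cell line SKNO-1 and its derivative SKNO1-siAE. The genes were CDKN2A, CDKN2B, CDH1, CDH13, SOCS1, DAPK1, ID4, ESR1 and MGMT, chosen by name. GENCODE places 36 starts of protein-coding transcripts at these 9 genes, of 78532 starts at 19748 protein-coding genes. Each start was measured from 1500 bp upstream to 1000 bp downstream, at CpG cytosines read 5 or more times in each library, here called shared sites. At least 5 shared sites were present at 28 of the 36 starts, from 8 genes, against 64801 of all starts, from 18339 genes. The other 8 starts, 6 of CDKN2A and both of CDKN2B, had 0 shared sites. The 28 starts held 604 different shared sites, of 1221103 at all protein-coding starts and 3168726 in the series. Neighbouring starts of a gene share many of these sites, and the 28 starts are not independent.

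SKNO-1 carries the RUNX1-RUNX1T1 fusion, also named AML1-ETO. SKNO1-siAE was made from SKNO-1 with the lentiviral vector pRRLcPPT.hPGK, which encodes siAGF1 oligonucleotides directed at the junction of the fusion mRNA and, per the labels, silences the fusion. Both lines were grown in the same medium. The comparison has 1 library for each line, and a line with an empty vector was not analysed here. Infection with the vector and silencing of the fusion therefore cannot be told apart. Whether SKNO1-siAE is a single clone is not given in the sources used here. The fusion transcript itself cannot be read from DNA methylation, so the silencing was not checked here.

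MCC-Seq captures bisulfite-converted DNA with probes. Bisulfite turns unmethylated cytosine into a base read as thymine and leaves methylated cytosine, so each read of a CpG counts as methylated or unmethylated. Levels run from 0 to 1 and are the methylated share of the reads at a site. The libraries were of like size, with mean depths of 17.7 and 17.5 reads over their deposited sites, and 0.351% and 0.378% of reads were methylated on mitochondrial DNA. Averaged over every shared site, methylation stood at 0.587 in SKNO-1 against 0.655 in SKNO1-siAE. At the 604 sites, which came from 8 of the 9 genes, the median depth was 12 reads (SKNO-1) and 18.5 reads (SKNO1-siAE). The promoters of 7 haematopoietic genes (PTPRC, SPI1, MPO, CD33, VAV1, LCP1 and CORO1A) had mean levels from 0 to 0.315 in SKNO-1 and from 0 to 0.403 in SKNO1-siAE, and those of 6 epithelial or intestinal genes (EPCAM, KRT19, KRT7, CDX2, CLDN4 and ESRP2) had levels from 0.786 to 0.90 and from 0.810 to 0.971.

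A CpG island is a stretch of DNA rich in CpG dinucleotides, and the islands at promoters of most genes are free of methylation in normal cells. In cancer, islands at the promoters of some genes that restrain growth become methylated, and this is associated with silent transcription. In myeloid leukaemia the cell cycle inhibitor CDKN2B, the adhesion gene CDH1, the cytokine brake SOCS1, the pro-death kinase DAPK1, the helix-loop-helix factor ID4, the hormone receptor ESR1 and the repair gene MGMT have all been studied for it. RNA was not measured in these libraries, and nothing here says whether a gene was transcribed.

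Below are the sequences from 250 bp before to 50 bp after 4 starts that show the main patterns, in the GRCh37 assembly (hg19) and on the strand of the gene. Capitals mark a CpG with at least 5 reads in both libraries on at least 1 strand, and all other bases, CpGs without that depth among them, are in lower case. DAPK1-213 (chr9:90113670-90113969, + strand) is shown because its sites were unmethylated in SKNO-1 and methylated in SKNO1-siAE, and DAPK1-201 (chr9:90111893-90112192, + strand) because its few CpGs were partly methylated in SKNO-1. MGMT-205 (chr10:131265255-131265554, + strand) holds the start of the stretch in which MGMT was lower in SKNO-1. SOCS1-201 (chr16:11350012-11350311, - strand) was unmethylated in both libraries.
DAPK1-213: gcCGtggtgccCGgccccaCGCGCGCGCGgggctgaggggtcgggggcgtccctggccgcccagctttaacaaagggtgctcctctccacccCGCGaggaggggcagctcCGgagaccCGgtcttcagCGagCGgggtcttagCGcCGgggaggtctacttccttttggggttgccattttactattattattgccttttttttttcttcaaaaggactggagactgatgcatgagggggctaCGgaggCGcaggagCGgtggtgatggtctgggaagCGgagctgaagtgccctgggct
DAPK1-201: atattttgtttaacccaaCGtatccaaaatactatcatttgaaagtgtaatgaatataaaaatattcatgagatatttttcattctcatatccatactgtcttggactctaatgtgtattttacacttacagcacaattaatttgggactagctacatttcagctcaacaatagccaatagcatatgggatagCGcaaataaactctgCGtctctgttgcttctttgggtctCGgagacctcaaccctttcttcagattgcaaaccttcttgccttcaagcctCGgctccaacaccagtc
MGMT-205: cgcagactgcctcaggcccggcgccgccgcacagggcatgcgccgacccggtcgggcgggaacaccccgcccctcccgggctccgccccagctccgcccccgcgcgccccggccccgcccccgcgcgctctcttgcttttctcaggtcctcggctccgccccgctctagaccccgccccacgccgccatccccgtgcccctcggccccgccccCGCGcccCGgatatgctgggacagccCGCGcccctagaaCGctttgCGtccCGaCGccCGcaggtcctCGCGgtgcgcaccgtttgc
SOCS1-201: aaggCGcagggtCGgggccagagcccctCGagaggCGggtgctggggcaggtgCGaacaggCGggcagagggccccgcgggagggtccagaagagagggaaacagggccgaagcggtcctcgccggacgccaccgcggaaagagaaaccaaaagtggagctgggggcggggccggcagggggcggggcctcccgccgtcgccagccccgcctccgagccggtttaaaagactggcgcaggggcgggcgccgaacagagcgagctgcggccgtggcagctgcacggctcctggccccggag
Of the CpGs in these stretches, 19 of 22 were covered in both libraries at DAPK1-213, 5 of 5 at DAPK1-201, 12 of 45 at MGMT-205 and 6 of 33 at SOCS1-201. The hexamer TGTGGT, the core of the motif bound by RUNX1, was looked for on both strands of such a stretch at each start, together with its variant TGCGGT. The core TGTGGT was present at 2 of the 36 starts, CDKN2A-207 and ESR1-209, and at 12.0% of all protein-coding starts. TGCGGT was present at 3 of the 36 starts, CDH1-202, ESR1-209 and ESR1-208, and at 8.37% of all starts. A match of letters is a description and not a binding site.

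The genes fell into 3 patterns. SOCS1 and the measured starts of CDKN2A were unmethylated in both libraries, DAPK1 was unmethylated over much of its promoter in SKNO-1 and methylated in SKNO1-siAE, and CDH1, CDH13, ID4, ESR1 and MGMT were methylated in both. At the start with the most shared sites, the mean level was above 0.5 for 5 of the 8 measured genes (62.5%) in SKNO-1 and for 6 (75%) in SKNO1-siAE, against 34.8% and 42.6% of all 18339 genes. Over all sites of a gene, the means in SKNO-1 rose from SOCS1 at 0.00469 through CDKN2A at 0.0321, DAPK1 at 0.127, ESR1 at 0.582, CDH13 at 0.673, MGMT at 0.676 and ID4 at 0.793 to CDH1 at 0.840. In SKNO1-siAE they rose from CDKN2A at 0.00823 through SOCS1 at 0.0148, MGMT at 0.721, ESR1 at 0.740, CDH13 at 0.763, DAPK1 at 0.920 and ID4 at 0.936 to CDH1 at 0.966. With 1 library a line there is no spread between replicates. The 95% Wilson intervals of the pooled reads, which cover counting error only, overlapped for SOCS1 and CDKN2A in both libraries, in SKNO-1 also for MGMT and ID4, and in SKNO1-siAE also for MGMT and ESR1, for MGMT and CDH13, and for DAPK1 and ID4. Pooled shares are not the means ranked above. For MGMT they were 0.779 in SKNO-1 (interval 0.759 to 0.797) and 0.739 in SKNO1-siAE, against means of 0.676 and 0.721. Reads carry no molecular identifiers and 1 read spans several CpGs, so these intervals are too narrow.

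A start was called lower or higher in SKNO-1 where its mean level differed by at least 0.2 over at least 5 shared sites, which is a threshold of size and not a test. By this rule 7 of the 28 starts (25%) were lower in SKNO-1 and 0 were higher, against 13.4% lower and 3.16% higher of all protein-coding starts. The background was not matched for level, and a start under 0.2 in SKNO1-siAE cannot be called lower. The 7 starts belong to DAPK1 (5 starts) and ESR1 (2 starts), and they overlap. With 1 start for each gene, the one with the most shared sites, 1 of the 8 genes (DAPK1) was lower and 0 were higher, against 14.4% lower and 3.08% higher of all genes, so the count of genes lay near the background. The median difference was -0.111 over the 28 starts and -0.007 over all starts. It was -0.108 over the 8 genes and -0.0106 over all genes, and 7 of the 8 genes (87.5%) had a lower mean in SKNO-1, against 62.4% of all genes.

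For single sites, the reads were put to a 2-sided Fisher's exact test, p-values were adjusted by the Benjamini-Hochberg method across the 3168726 shared sites, and a call needed both an adjusted p below 0.05 and a change in level of 0.2 or more. The test compares these libraries and not the conditions. Of the 604 sites, 148 (24.5%) were lower and 33 (5.46%) were higher in SKNO-1, against 10.5% lower and 4.02% higher of the sites at all protein-coding starts. These shares were not matched for level either. In SKNO1-siAE the mean was above 0.5 for 75% of the 8 measured genes and for 42.6% of all genes. With Bonferroni adjustment the counts were 25 lower and 5 higher. DAPK1 held 56 of the lower sites. Of the 540 sites at the other genes, 92 (17.0%) were lower and 32 (5.93%) were higher. More sites were lower than higher at CDH1, CDH13, DAPK1, ID4 and ESR1, MGMT had 14 higher and 13 lower, and SOCS1 and CDKN2A had 0 of either.

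DAPK1 encodes a calcium/calmodulin-dependent serine/threonine kinase that takes part in cell death induced by interferon gamma and other signals, and its silencing by methylation is well known in B-cell tumours. The gene lies on the + strand at chr9:90112143-90323549. All 5 of its measured starts were lower in SKNO-1, and the gap widened from the most upstream to the most downstream start. Their windows overlap, and those farther downstream held a larger share of the sites with the wider gap. In the DAPK1-202 window, 15 sites more than 500 bp upstream differed by -0.338 and 18 sites more than 500 bp downstream by -0.965. DAPK1-201, at position 90112143, averaged 0.526 in SKNO-1 and 0.864 in SKNO1-siAE over 15 sites. DAPK1-207, at 90112596, had 0.493 and 0.873 over 16 sites. The canonical DAPK1-202, at 90112782, had 0.239 and 0.919 over 33 sites, a difference of -0.680. DAPK1-219, at 90113450, had 0.115 and 0.929 over 61 sites, a difference of -0.814. DAPK1-213, at 90113920, had 0.00462 and 0.938 over 49 sites, a difference of -0.933. The size depended on the sites used: DAPK1-202 moved to -0.337 with at least 10 reads and to -0.338 with upstream sites, DAPK1-219 to -0.408 with upstream sites, and DAPK1-201 and DAPK1-207 to -0.559 and -0.627 with each library's own sites, all still past the limit. At the start with the most sites, which for DAPK1 is DAPK1-219, 137 of the 18339 measured genes (0.747%) differed by as much in that direction.

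The contrast at DAPK1-213 was nearly complete. From -326 to +253 bp of that start, SKNO-1 had 0 methylated reads of 370 over 47 sites, with an upper 95% Wilson bound of 0.0103, and SKNO1-siAE had 657 of 712 (0.923, 95% Wilson interval 0.901 to 0.940). All 47 sites were at 0 in SKNO-1, and 32 of them were at 1 in SKNO1-siAE. Read by Fisher's exact test, 45 of the 47 sites were lower in SKNO-1. These sites include the 19 CpGs in capitals in the DAPK1-213 sequence above. Counting a site as coding if it is so in any DAPK1 transcript, they are annotated as intron (32), coding sequence (10) and UTR (5). The coding ones averaged 0.902 in SKNO1-siAE. Over all 49 sites of the DAPK1-213 window, the difference was present on both strands, at -0.875 over 16 sites of the + strand and -0.961 over 33 of the - strand. At the 47 sites depth was low in SKNO-1, from 5 to 15 reads a site against 7 to 34 in SKNO1-siAE. The smallest adjusted p of the 604 sites, 2.83e-52 by Fisher's exact test, was in an intron +835 bp from DAPK1-213, with 6 methylated reads of 109 in SKNO-1 against 139 of 144 in SKNO1-siAE.

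Upstream of the canonical DAPK1 start, SKNO-1 was not free of methylation. From -696 to -513 bp of the canonical start, around DAPK1-201, 14 sites had 135 of 254 methylated reads in SKNO-1 (0.531, interval 0.470 to 0.592) and 779 of 825 in SKNO1-siAE (0.944, interval 0.926 to 0.958). Single sites ranged from 0 to 1 in SKNO-1. On the + strand at position 90112125, the methylated reads were 0 of 23 (SKNO-1) and 72 of 72 (SKNO1-siAE), whereas the opposite strand of this CpG had 15 of 24 and 110 of 110. Farther upstream, 1 site at -870 bp went the other way, with 9 of 10 reads methylated in SKNO-1 and 4 of 15 in SKNO1-siAE (adjusted p = 0.0247, Fisher's exact test). Both sites were picked after their values were seen.

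No shared site lay from -500 to +800 bp of the canonical DAPK1-202 start, so the island at that start was compared only through sites that passed 5 reads in 1 library. Over the 500 bp upstream, SKNO-1 had 14 such sites with 0 of 92 methylated reads and SKNO1-siAE had 10 sites with 42 of 50. Over the 500 bp downstream, SKNO-1 had 5 sites with 0 of 40 methylated reads and SKNO1-siAE had none. As a share of all reads at shared sites of each library, the depth of the DAPK1 windows in SKNO-1 was 0.309 to 0.573 of that in SKNO1-siAE, against 0.861 for chromosome 9 as a whole, and its part in the result was not tested. In the rest of the gene body the order was turned, with a mean of 0.931 in SKNO-1 and 0.857 in SKNO1-siAE over 97 sites.

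**Figure D1:**
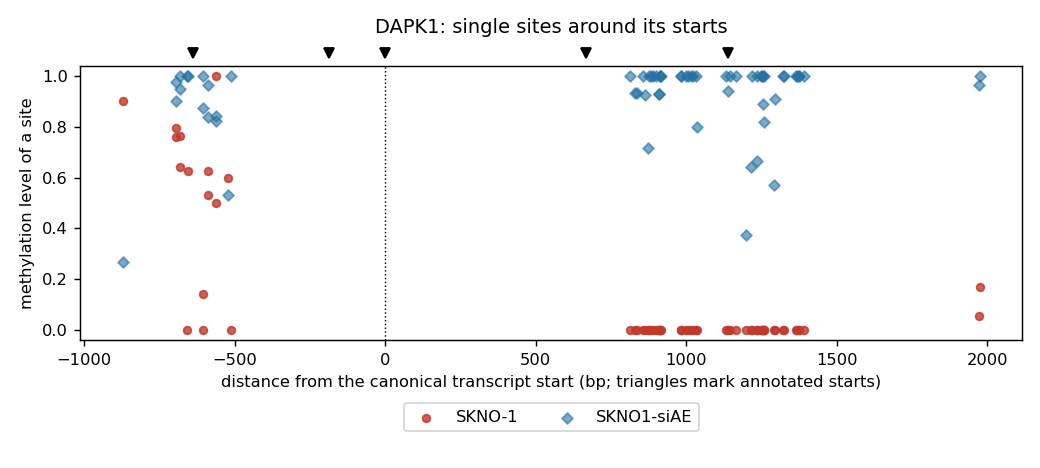
Level of each of the 64 shared sites at DAPK1 (vertical axis, 0 to 1) against distance from the canonical DAPK1-202 start in bp; circles are SKNO-1, diamonds SKNO1-siAE, and triangles mark the annotated starts. Beyond +800 bp the SKNO-1 sites lie at or near 0 and most SKNO1-siAE sites near 1, while from -696 to -513 bp SKNO-1 is spread from 0 to 1.

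ESR1 encodes oestrogen receptor alpha, a ligand-activated transcription factor whose promoter island is methylated in many leukaemias. It spans chr6:151977826-152450754 on the + strand, and its 190 sites were spread over starts that lie far apart. The mean over all of them was 0.582 in SKNO-1 and 0.740 in SKNO1-siAE, with 51 sites lower and 10 higher. The canonical ESR1-201 start, at position 152128817, had 0.605 in SKNO-1 and 0.775 in SKNO1-siAE over 99 sites, a difference of -0.170 that stayed under the limit of 0.2. ESR1-204, ESR1-209 and ESR1-208, which share most of these sites, differed by -0.170, -0.170 and -0.155, and ESR1-206, at 152130242, by -0.0965, which moved to -0.0311 with at least 10 reads and to -0.0374 with pooled reads. Past the limit were ESR1-202, at 152125566, with 0.465 and 0.735 over 28 sites, and ESR1-205, at 152201792, with 0.492 and 0.776 over 16 sites. With each library's own sites ESR1-205 was no longer past the limit (-0.180), whereas ESR1-209 passed it with at least 10 reads, with own sites and with upstream sites (-0.217, -0.212 and -0.264), and ESR1-202 ran from -0.201 with pooled reads to -0.524 within 500 bp of the start. The windows of both called starts are poor in CpG, with 28 and 33 CpGs against 138 at ESR1-201.

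Along the canonical ESR1 promoter the libraries shared a dip and differed on its flank. From -559 to -405 bp, 9 sites were nearly unmethylated in both, with 3 of 112 methylated reads in SKNO-1 and 4 of 183 in SKNO1-siAE. From -391 to -211 bp, SKNO-1 had 176 of 396 methylated reads (0.444, interval 0.396 to 0.494) and SKNO1-siAE had 639 of 890 (0.718, interval 0.688 to 0.747), with 10 of 22 sites lower and 1 higher. From +7 to +141 bp, in the first exon, both were methylated, at 358 of 419 reads (0.854) and 641 of 673 (0.952), with 6 of 35 sites lower and 1 higher. At ESR1-202, 8 sites from +399 to +492 bp had 51 of 161 methylated reads in SKNO-1 (0.317) and 422 of 469 in SKNO1-siAE (0.90). At ESR1-205, 4 sites from -792 to -753 bp had 9 of 43 methylated reads (0.209) in SKNO-1 and a pooled level of 0.936 in SKNO1-siAE.

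The most upstream ESR1 starts were the exception. ESR1-203 and ESR1-207 begin at the same base, 152011631, where the window holds only 20 CpGs. Their mean was 0.516 in SKNO-1 and 0.436 in SKNO1-siAE over 19 sites, a difference of 0.0797, or 0.128 over the 13 upstream sites. At 1 CpG of this window, both strands were higher in SKNO-1, with 62 of 89 methylated reads against 20 of 172 over -411 to -410 bp. At another, at +92 and +93 bp, both strands were lower, with 0 of 19 against 8 of 25 reads and 4 of 43 against 11 of 31. Scaled in the same way to the reads of each library, the depth of the ESR1 windows in SKNO-1 was 0.342 to 0.542 of that in SKNO1-siAE, against 0.830 for chromosome 6, and its part in the result was not tested. In the ESR1 gene body outside these windows, 71 sites had means of 0.422 and 0.550.

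MGMT encodes the methyltransferase that removes alkyl groups from guanine, and methylation of its promoter is used as a marker in glioma. Its starts, MGMT-201 at position 131265454 and the canonical MGMT-205 at 131265505 on the + strand of chromosome 10, had nearly equal means. MGMT-205 had 0.682 in SKNO-1 and 0.740 in SKNO1-siAE over 73 sites, and MGMT-201 had 0.676 and 0.721 over 75 sites. These means hid opposite stretches. From +2 to +81 bp of MGMT-205, 10 sites had 2 of 84 methylated reads in SKNO-1 (0.0238, interval 0.00655 to 0.0827) and 211 of 211 in SKNO1-siAE (1, interval 0.982 to 1), and all 10 were lower. The first 7 of them lie in sequence that is coding in at least 1 MGMT transcript, not necessarily MGMT-205, and the other 3 in an intron. All 10 are on the + strand, with 6 to 10 reads a site in SKNO-1 and 16 to 27 in SKNO1-siAE, and 1 read can span several of them.

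At several upstream sites, MGMT was higher in SKNO-1. At -770 and -769 bp, the 2 strands of 1 CpG had 52 of 62 methylated reads in SKNO-1 and 0 of 30 in SKNO1-siAE. From -578 to -554 bp, 3 sites had 52 of 52 and 9 of 39. At -404 and -403 bp the counts were 24 of 27 and 1 of 11. Between these, sites from -549 to -519 bp were methylated in both, at 62 of 74 and 30 of 30, as were those from -367 to -331 bp, at 72 of 72 and 96 of 96. More than 500 bp upstream, 35 sites averaged 0.865 in SKNO-1 and 0.758 in SKNO1-siAE, the 17 sites of the last 500 bp before the start averaged 0.732 and 0.711, and the 21 sites of the 500 bp after it 0.336 and 0.732. With each library's own sites, the last 500 bp before the start averaged 0.647 in SKNO-1 (65 sites) and 0.872 in SKNO1-siAE (50 sites), and the difference over the whole window was -0.162. Scaled to the reads of each library, the MGMT windows had 1.20 and 1.23 times the depth in SKNO-1, against 1.11 for chromosome 10, but the median site had 13 reads in SKNO-1 and 16 in SKNO1-siAE. The gene body, with 1297 sites, had nearly the same mean in both, 0.820 and 0.815.

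The mean difference at MGMT depended on which sites entered. Merging the strands of each CpG moved that of MGMT-205 to -0.241, past the limit, windows of 500 bp on each side gave -0.209, and counting only sites upstream of the start gave 0.0793. By strand, the MGMT-205 difference was -0.143 over 47 sites of the + strand and 0.0985 over 26 sites of the - strand. Neither sign of the mean therefore describes the promoter. The stretches above were chosen after their values were seen and describe only their own sites.

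**Figure D2:**
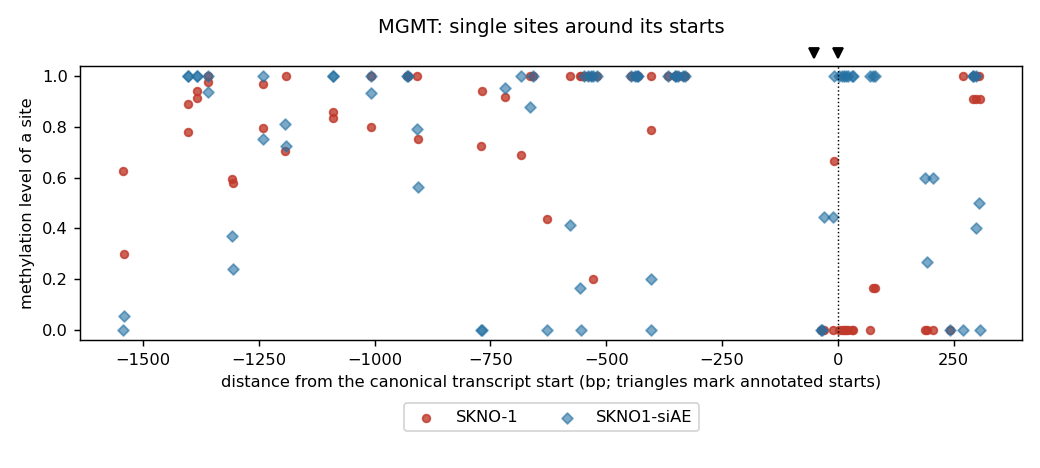
Level of each of the 75 shared sites at MGMT (vertical axis, 0 to 1) against distance from the canonical MGMT-205 start in bp; circles are SKNO-1, diamonds SKNO1-siAE, and triangles mark the annotated starts. Just after the start SKNO-1 lies at or near 0 and SKNO1-siAE at 1, and at several sites between -770 and -403 bp the order is turned.

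CDH1 encodes E-cadherin, which holds epithelial cells together and has been reported silenced in leukaemia, and CDH13 encodes T-cadherin, a cadherin anchored to the membrane without a cytoplasmic tail. CDH1 was the most methylated of the 8 genes in both libraries. Its starts, CDH1-201 (canonical) at 68771195 and CDH1-202 at 68771255 on the + strand of chromosome 16, share the same 39 sites, with means of 0.840 in SKNO-1 and 0.966 in SKNO1-siAE. The difference of -0.126 moved to -0.0598 over the 9 sites with at least 10 reads. From -600 to -525 bp every read was methylated in both, 80 of 80 and 42 of 42. From -251 to -102 bp, 156 of 176 reads (0.886, interval 0.831 to 0.925) and 383 of 384 (0.997) were methylated. Of the 39 sites, 5 were lower in SKNO-1 and 0 were higher. At 1 of them, -121 bp, the methylated reads numbered 2 of 9 in SKNO-1 and 23 of 23 in SKNO1-siAE. Scaled to the reads of each library, the windows had 0.555 times the depth in SKNO-1, against 0.928 for chromosome 16, and the part of depth in the result was not tested. On the + strand the mean difference was -0.0450 and on the - strand -0.195, over sites that pair only in part. At the 9 CpGs read on both strands, the + strand level less the - strand level averaged 0.190 in SKNO-1 and -0.00261 in SKNO1-siAE. The difference at CDH1 thus lay more on 1 strand, also at the same CpGs. In the gene body outside the windows, 37 sites had means of 0.599 and 0.893.

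CDH13 was methylated in patches. Its starts, from CDH13-201 at 82660570 to CDH13-210 at 82660644, share 80 sites with means of 0.673 in SKNO-1 and 0.763 in SKNO1-siAE, 11 sites lower and 6 higher. These sites were deep, with medians of 26.5 and 19 reads. Upstream of the canonical CDH13-209, from -614 to -495 bp, 0 of 72 reads in SKNO-1 and 0 of 79 in SKNO1-siAE were methylated. At -368 bp the methylated reads were 0 of 54 (SKNO-1) and 4 of 22 (SKNO1-siAE). From -257 to -245 bp, 4 sites were methylated in both, at 165 of 182 and 174 of 183 reads. Nearer the start, from -142 to -132 bp, 4 of 6 sites were higher in SKNO-1, and the other 2, at -133 and -132 bp, were methylated in both. Pooled, these 6 sites had 273 of 285 methylated reads (0.958, interval 0.928 to 0.976) against 175 of 269 (0.651, interval 0.592 to 0.705). At -110 and -109 bp, the methylated reads were 30 of 67 (SKNO-1) and 105 of 105 (SKNO1-siAE). From +22 to +57 bp, just after the start, 4 sites had 8 of 135 (0.0593, interval 0.0303 to 0.113) and 93 of 144 (0.646, interval 0.565 to 0.719), all 4 lower. From +96 to +99 bp, 94 of 95 and 61 of 77 reads were methylated, with 2 sites higher. From +100 to +194 bp, 17 sites were methylated in both, at 420 of 452 and 269 of 278, and 0 of them were called. Along the promoter, SKNO-1 was thus higher at the called sites from -142 to -139 bp, lower at those from -126 to +57 bp, higher at +96 and +97 bp, and lower at +232 bp, where 3 of 12 and 8 of 8 reads were methylated. In the gene body, 304 sites had means of 0.472 and 0.647.

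ID4 encodes an inhibitor of DNA binding, a helix-loop-helix protein without a basic region that keeps E proteins off DNA. ID4-201, at position 19837601 on the + strand of chromosome 6, was highly methylated in both libraries, with 0.793 in SKNO-1 and 0.936 in SKNO1-siAE over 49 sites. The difference of -0.143 did not pass 0.2, and 12 sites were lower and 2 higher. Upstream, from -681 to -384 bp, 708 of 874 reads (0.810, interval 0.783 to 0.835) and 742 of 815 (0.910, interval 0.889 to 0.928) were methylated. After the start, from +55 to +232 bp, 229 of 274 (0.836, interval 0.787 to 0.875) and 193 of 195 (0.990, interval 0.963 to 0.997) were methylated. The largest gap was at -585 bp, with 0 of 11 methylated reads in SKNO-1 and 43 of 47 in SKNO1-siAE, and the site at -539 bp went the other way, with 29 of 29 and 10 of 34. Over the 13 CpGs read on both strands, the median gap between strands was 0.205 in SKNO-1 and 0.0121 in SKNO1-siAE. The 39 CpGs of the 300 bp around the start itself had 0 shared sites. Scaled to the reads of each library, the ID4 window had 1.12 times the depth in SKNO-1, against 0.830 for chromosome 6.

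SOCS1 encodes a protein that binds JAK kinases and turns off cytokine signalling. It was nearly free of methylation in both libraries. SOCS1-201 (canonical, position 11350061) and SOCS1-202 (11350057), on the - strand of chromosome 16, share 80 sites. In SKNO-1, 3 of 725 reads were methylated (0.00414, interval 0.00141 to 0.0121) and 79 of the 80 sites were at 0. In SKNO1-siAE, 16 of 1008 were methylated (0.0159, interval 0.00979 to 0.0256) and 75 sites were at 0. No site was called by Fisher's exact test, and the smallest adjusted p was 0.0667. With the sites of each library taken on their own, shared or not, the end of the window was not as even. From +500 to +1000 bp, within the gene, SKNO1-siAE had 67 sites of its own depth with a mean of 0.239 (131 of 681 reads), whereas SKNO-1 had 62 sites with 0 of 457. The shared 33 sites of that stretch averaged 0.0237 in SKNO1-siAE and 0 in SKNO-1, so most of this methylation lay at sites that SKNO-1 did not cover. Beyond the windows, 17 sites of the gene had means of 0.811 in SKNO-1 and 0.614 in SKNO1-siAE, 3 of them higher in SKNO-1.

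CDKN2A and CDKN2B encode inhibitors of the cyclin D kinases and sit side by side on the - strand of chromosome 9, and CDKN2A also encodes ARF, which protects p53, from a first exon far upstream. The upstream starts, on the ARF side, were unmethylated in both libraries. CDKN2A-206 (position 21995268), CDKN2A-210 (21994410) and CDKN2A-214 (21994391) share 27 sites with 5 of 201 methylated reads in SKNO-1 (0.0249, interval 0.0107 to 0.0569) and 2 of 384 in SKNO1-siAE (0.00521, interval 0.00143 to 0.0188). CDKN2A-209 (21995300) had 0 of 172 reads in SKNO-1, with an upper Wilson bound of 0.0218, and 0 of 339 in SKNO1-siAE, with an upper bound of 0.0112. All of these sites are on the - strand and depth in SKNO-1 was low, with a median of 6 reads.

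The INK4A starts of CDKN2A, among them the canonical CDKN2A-201 at 21974856, had 0 shared sites. SKNO-1 listed 6 sites of 7 reads each there, from +341 to +405 bp, with 32 of 42 reads methylated (0.762, interval 0.615 to 0.865), and SKNO1-siAE listed 0. The starts farthest downstream, CDKN2A-212, CDKN2A-205 and CDKN2A-207, had 0 sites in either library. CDKN2B was likewise covered in SKNO-1 alone. Around CDKN2B-201 (canonical, 22009304) and CDKN2B-202 (22009271), SKNO-1 listed 29 sites with 302 of 508 reads methylated (0.594, interval 0.551 to 0.636), at 63 of 90 upstream of CDKN2B-201 and 239 of 418 after it, and SKNO1-siAE listed 0. The deposited files hold only sites with at least 5 reads, so a site that is not listed has no level here. CDKN2B was not without reads in SKNO1-siAE: in its gene body 11 sites were shared, with means of 0.435 in SKNO-1 and 1 in SKNO1-siAE, 5 of them lower in SKNO-1.

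**Figure D3:**
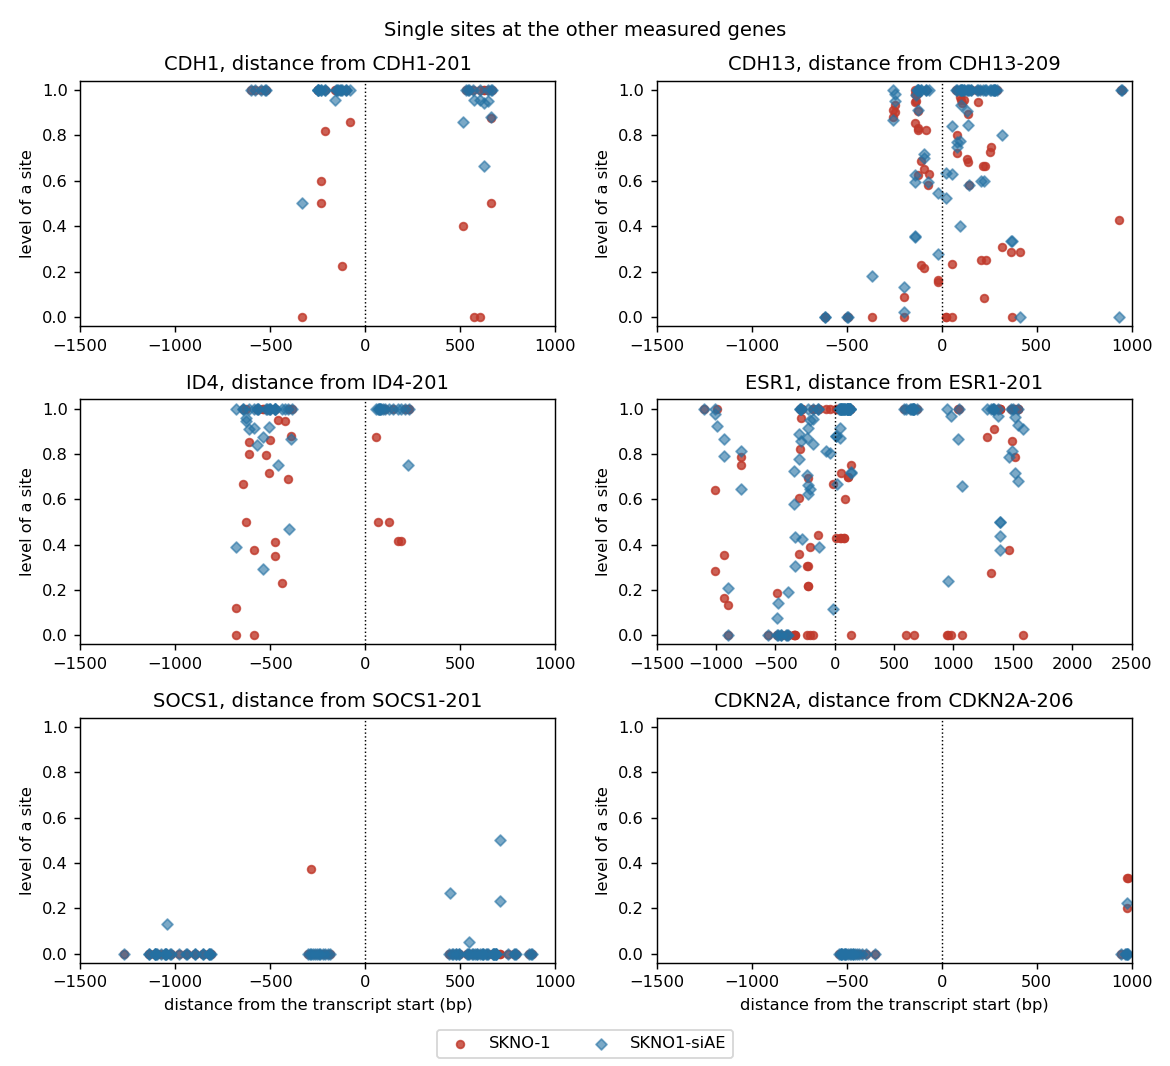
Level of each shared site (vertical axes, 0 to 1) at 6 of the genes against distance in bp from the start named in each panel; circles are SKNO-1 and diamonds SKNO1-siAE. CDH1 and ID4 lie near 1 with scattered lower SKNO-1 sites, CDH13 and ESR1 are patchy, and most sites of SOCS1 and CDKN2A lie at 0; the ESR1 panel leaves out the sites of ESR1-203, ESR1-202 and ESR1-205, which lie beyond its axis.

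In steps of 100 bp, with 1 start for each gene, the 8 genes had 45 stretches of at least 5 sites. The mean was lower in SKNO-1 by at least 0.2 in 17 of them (37.8%) and higher in 1 (2.22%), at MGMT, against 13% lower and 4.38% higher of 95567 such stretches at all genes, again not matched for level. These counts depend on the start that sets the steps. From 0 to 99 bp the difference was -0.299 at CDH13-201, the start used, and -0.145 at CDH13-209. At CDH13-210 the step from -300 to -201 bp was higher in SKNO-1, by 0.217 over 8 sites. It was lower by at least 0.9 in 4 (8.89%), all at DAPK1-219, against 2.13% of the stretches at all genes. All 7 stretches of DAPK1-219 were lower in SKNO-1, as were 3 of 5 at CDH13, 3 of 7 at ESR1, 2 of 5 at ID4, 1 of 5 at CDH1, 1 of 5 at MGMT, and 0 of the 8 at SOCS1 and the 3 at CDKN2A.

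The pathways around these genes were read in the same way from 8 lists of partner genes, with 1 start for each gene. Of 77 genes, 76 had at least 5 shared sites, 10 were lower and 4 were higher in SKNO-1 (13.2% and 5.26%, against 14.4% and 3.08% of all genes), and the median difference was -0.0165. These counts lay near the background.

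Among 14 cell cycle regulators, the neighbours of CDKN2A and CDKN2B in function, 1 was lower and 0 were higher. It was CDKN1C, an imprinted inhibitor of cyclin kinases, at 0.183 in SKNO-1 and 0.468 in SKNO1-siAE. Of 9 measured cadherins and catenins, 2 were lower and 0 were higher: CTNNB1, the beta-catenin of adhesion and Wnt signalling, at 0.273 and 0.726, and CDH5, the cadherin of vessels, at 0.179 and 0.506. Of 13 cytokine signalling genes around SOCS1, 3 were lower and 1 was higher. PTPN6, a phosphatase of blood cells, had 0.452 and 0.755, STAT5A, a target of JAK2, had 0.0185 and 0.274, and CISH, a relative of SOCS1, had 0 and 0.230. PIAS1, a SUMO ligase that restrains cytokine signalling, was the higher one, at 0.403 and 0.0909.

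Of the 4 death kinases related to DAPK1, only DAPK2 was past the limit, at 0.644 in SKNO-1 and 0.938 in SKNO1-siAE over 16 sites, and the other 3 differed by at most 0.0251 in size. Of 5 ID and E proteins, 1 was lower, the E protein TCF12, at 0.000663 and 0.368 over 116 sites with 44 lower and 0 higher. Of 8 nuclear receptors and cofactors, 1 was lower, the retinoic acid receptor RARA, at 0.563 and 0.990. Of 8 DNA repair genes in the list of MGMT, 0 were past the limit, and their differences ran from -0.0128 to 0.0188.

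Of 15 other tumour suppressors often methylated in cancer, 1 was lower and 3 were higher. THBS1, an inhibitor of vessel growth, had 0.248 in SKNO-1 and 0.515 in SKNO1-siAE. KLF4, a zinc finger factor, was the most different, at 0.976 and 0.389 over 13 sites, followed by WT1, a zinc finger factor often overexpressed in AML, at 0.676 and 0.237 over 135 sites, and BNIP3, a mitochondrial death protein, at 0.950 and 0.702 over 129 sites.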

How the data were processed

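Per the labels and the study's methods, DNA of 2 cell lines, 1 library each, was bisulfite-converted, captured with Roche NimbleGen SeqCap Epi probes, sequenced as paired reads and trimmed, and the authors aligned the reads to hg19 with BSMAP 2.73 (the submitters' processing notes also name cutadapt 1.4.2). The authors deposited 2 counts per CpG cytosine and strand, methylated and unmethylated reads, for sites of at least 5 reads, without normalization. The authors called methylation from what they term unique sequences; whether PCR duplicates were removed is not spelled out. Probes and depth set which sites are seen, so islands with few reads are missed.

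Levels, starts (GENCODE release 44 lifted to GRCh37), Fisher tests and Wilson intervals were computed in python (3.11.15) with the packages scipy (1.17.1) and numba (0.67.0), tables were handled with pandas (2.3.3) over numpy (2.4.6), and plots were drawn with matplotlib (3.10.9). The site test was tested on simulated data. The members and partner lists were chosen with earlier results of these data known. All 9 members are named; of each partner list, at most 3 genes past 0.2 in each direction. Single sites and stretches were chosen after their values were seen. A search for genes with a profile like DAPK1-213 named none, since that start had 8 stretches of 100 bp with sites and 10 were required. The alternatives changed the depth minimum to 10 reads, the averaging to a pooled share, the strands to merged CpGs, the site set to each library's own, the window, the limit, the adjustment and the test.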

Additional observations from a re-analysis of the deposited data

Results flagged for a closer look

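SKNO-1 showed methylated reads at starts that the comparison could not use, because SKNO1-siAE had no listed site there. At CDKN2A-201, CDKN2A-213 and CDKN2A-208, which share 6 sites, the methylated share of pooled reads in SKNO-1 was 0.762, or 32 of 42 reads. At CDKN2B-202 and CDKN2B-201, which share 29 sites, it was 0.594, or 302 of 508 reads. The level of these sites in SKNO1-siAE is not known from the deposited files, and nothing can be said of a difference between the lines.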

How the results depend on the processing

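The counts of starts kept within 1.5 times of 7 lower and 0 higher under every alternative run, with 5 to 9 lower and 0 higher. Of 604 sites, 148 were lower and 33 higher; Bonferroni adjustment left 25 lower and 5 higher, and at least 10 reads in both libraries left 91 lower of 324 sites. Of the 20 starts with distinct sites, 117 values were recomputed: 69 moved by less than the counting interval, 48 moved further, and 8, at MGMT and SOCS1, turned to the opposite sign, while CDKN2A-214 (at least 10 reads, and upstream) and SOCS1-202 (at least 10 reads) fell to 0. CDH13-201 moved from -0.0902 to -0.0479 with own sites. DAPK1-202 fell from -0.680 to -0.337 with at least 10 reads, because only 12 of its 33 sites, the upstream ones, kept that depth, and DAPK1-213 kept -0.863 over 15 sites. MGMT-205 ran from -0.241 with merged strands to 0.0793 upstream of the start. Upstream windows could not be computed for ESR1-202 nor windows of 500 bp on each side for DAPK1-202 and ESR1-205, for want of 5 sites. No paired analysis was possible because each line has 1 library. No shared site lay within 250 bp before and 50 bp after DAPK1-202, ID4-201 and the starts of CDKN2A and CDKN2B, among others, and the cause was not tested.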
